A study of Mus musculus with 4 samples.

Results

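Claudins, occludin and the scaffold protein ZO-1 build the tight junction, and 9 of their genes were followed here across Snai1 knockout and control cells: Cldn3, Cldn4, Cldn5, Cldn6, Cldn7, Cldn9, Cldn12, Ocln (occludin) and Tjp1 (ZO-1). They were taken by gene name from the 17097 genes measured on the arrays. All 9 were present, with 11 probe sets in all, since Cldn3 and Cldn12 had 2 each. A probe set is a group of probes on an Affymetrix array designed to measure a transcript, though some match several genes. A gene with more than 1 probe set was represented by the one whose average across arrays was highest.

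Mouse embryonic stem cells of a control line, labelled F/F, and of a Snai1 knockout line, labelled KO, were left to differentiate without directed induction as embryoid bodies, which are aggregates of stem cells. The aggregates were broken up and the cells separated with an antibody to Flk1, the receptor encoded by Kdr that marks early mesoderm and the precursors of blood and vessel cells. The 4 groups were F/F Flk1+, F/F Flk1-, KO Flk1+ and KO Flk1-, each with 1 array. No group had a replicate, so no test could be run, and the spread between cultures is unknown for every value below. The labels do not give a strain, a number of clones or pooled cultures, or the deleted part of Snai1. The cells were taken on day 4, except that for KO Flk1- one label says day 4 and another day 5. The comparisons that do not use that array are KO against F/F in Flk1+ cells and Flk1+ against Flk1- in F/F cells.

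Tight junctions seal the space between neighbouring epithelial or endothelial cells near their apical edge. Claudins are membrane-spanning proteins that polymerise into the sealing strands and set which ions pass, occludin joins the strands, and ZO proteins tie them to actin from the cytoplasmic side. Snai1 is a zinc finger repressor that binds DNA elements called E-boxes with the core CAGGTG, and it is known for silencing E-cadherin, claudins and occludin when epithelial cells turn mesenchymal, as the epiblast does when it forms mesoderm.

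The promoters of Cldn6, Cldn7 and Ocln, the members that varied most over the arrays, held this E-box. They are shown because Snai1 is the gene that was knocked out. RefSeq promoter windows of 300 bases on build GRCm38.p6, from 250 bases before to 50 bases after an annotated transcription start, were given for 8 of the 9 genes. The motif CAGGTG and its reverse complement CACCTG were searched on both strands; a match on one strand is a match of the other form on the opposite strand and was counted once. The 250 bases before the start of Cldn6 (chr17:23679115-23679364, plus strand) and before the second annotated start of Cldn7 (chr11:69965171-69965420, plus strand) read as follows, with the motif in capitals.
Cldn6: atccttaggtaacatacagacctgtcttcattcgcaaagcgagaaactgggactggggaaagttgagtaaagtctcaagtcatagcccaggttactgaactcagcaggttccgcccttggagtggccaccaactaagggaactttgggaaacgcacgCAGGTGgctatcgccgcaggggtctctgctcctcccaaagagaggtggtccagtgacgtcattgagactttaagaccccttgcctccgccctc
Cldn7: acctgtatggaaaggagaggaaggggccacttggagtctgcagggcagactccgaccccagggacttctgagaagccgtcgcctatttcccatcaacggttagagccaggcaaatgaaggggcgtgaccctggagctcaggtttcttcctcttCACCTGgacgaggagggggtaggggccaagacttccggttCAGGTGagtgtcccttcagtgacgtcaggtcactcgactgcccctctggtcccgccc

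The Cldn6 window had one match at position -93 from the start and another at position 41 after it (chr17:23679393-23679414, plus strand), while the Cldn7 window had matches at positions -97 and -57. For Ocln, one match lay at position 8 of the first annotated start, which is position -213 from the second, and another lay at position -68 from the second (chr13:100552694-100552723 and chr13:100552549-100552578, minus strand). Cldn3 had a match at position 32 (chr5:134986233-134986262, plus strand), and Cldn4 at positions -14 and 12 (chr5:134946931-134946960 and chr5:134946906-134946935, minus strand). The sites follow with up to 12 bases on each side.
Cldn6 position 41: cagtctcttttgCAGGTGagcc
Ocln position 8: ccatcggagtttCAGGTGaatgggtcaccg
Ocln position -68: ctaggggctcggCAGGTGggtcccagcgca
Cldn3 position 32: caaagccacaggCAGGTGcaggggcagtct
Cldn4 position -14: ctttaactgcagCACCTGtggccgcccttt
Cldn4 position 12: cctttcttgttgCAGGTGcaggcaggaaag

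The motif was therefore present in windows of 5 of 8 genes, Cldn3, Cldn4, Cldn6, Cldn7 and Ocln (62.5%), against 22.6% of the 27025 genes with a window and 21.4% of the 8867 genes with a window that were above the floor defined below. Counted by window, 6 of 12 held it (50.0%), against 20.2% of 32851. The windows of Ocln overlap in part, as do those of Cldn12. The first annotated start of Cldn7, the 3 starts of Cldn12, and the windows of Cldn5 and Tjp1 did not contain these letters. A match describes the sequence and does not show that a factor binds there.

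**Figure D1:**
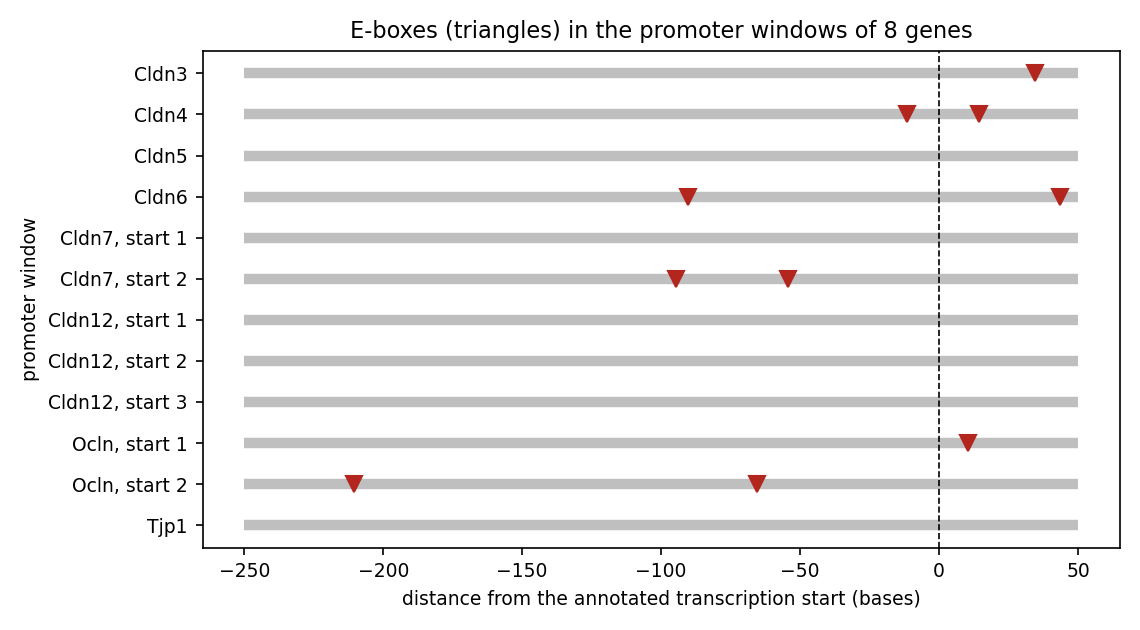
Positions of the motif CAGGTG or CACCTG (triangles) in the 12 RefSeq promoter windows (grey bars) of 8 genes, with the distance from the annotated start in bases on the horizontal axis. Cldn6, Cldn4 and the second windows of Cldn7 and Ocln carry 2 matches each, and the windows of Cldn5, Cldn12 and Tjp1 carry none.

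The deposited values were on a log2 scale, on which a difference of 1 is 2-fold. A floor of 3.19, which is the 40th percentile of the pooled gene values, separated genes with signal from those without, and 10195 to 10302 genes were above it per array. Levels are given below in the order F/F Flk1+, F/F Flk1-, KO Flk1+ and KO Flk1-. Kdr had values of 8.92, 4.55, 9.03 and 3.88, so the sort labels matched its RNA. Snai1 itself had values of 2.56, 2.42, 1.88 and 1.94, all below the floor, which leaves the genotype labels without a check. The signal of the 3' minus the 5' Gapdh control probe sets, a sign of RNA integrity and labelling, was 2.05, 1.76, 1.47 and 1.99. Where a gene had more than 1 probe set, the genotype differences of its 2 highest probe sets differed with an SD of 0.33 over 3968 genes in Flk1+ and 0.29 over 3937 genes in Flk1- cells. That is a spread between probes on the same arrays and not one between cultures.

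The largest differences among the 9 genes were in Cldn6 and Cldn7. Both were low in F/F Flk1+ cells and near one another on the other 3 arrays, so their transcripts in KO Flk1+ cells were slightly above those in F/F Flk1- cells. Cldn6, a claudin of the early embryo and of pluripotent cells, had values of 7.56, 8.92, 9.10 and 9.21. Cldn7, a claudin of many simple epithelia, had values of 4.30, 5.72, 5.85 and 6.12.

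In Flk1+ cells, Cldn6 was 1.54 higher on the log2 scale in KO than in F/F (2.91-fold), rank 33 of 10655 genes from the highest difference. Cldn7 was 1.55 higher (2.93-fold), rank 31. In Flk1- cells the same differences were 0.30 (1.23-fold, rank 1441 of 10533) and 0.40 (1.32-fold, rank 820). The genotype difference of both genes was thus larger in Flk1+ than in Flk1- cells, by 1.24 for Cldn6 and 1.15 for Cldn7, ranks 39 and 45 of 10955. That comparison uses the KO Flk1- array, whose day labels disagree.

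Between the sorted fractions of F/F cells, Cldn6 was lower in Flk1+ cells by a difference of -1.35 (2.56-fold), and Cldn7 by -1.42 (2.68-fold), ranks 81 and 72 of 10622 from the lowest. Between the fractions of KO cells the differences were -0.11 and -0.27, and these also use the array whose day labels disagree. The contrast of the fractions that control cells showed for these claudins was therefore 2-fold or more only in F/F cells; with 1 array a group, the difference between the genotypes in this contrast was not tested. Both 2-fold comparisons share the F/F Flk1+ array. On the other 3 arrays the whole range was 0.30 for Cldn6 and 0.40 for Cldn7, so the calls rest on that array.

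**Figure D2:**
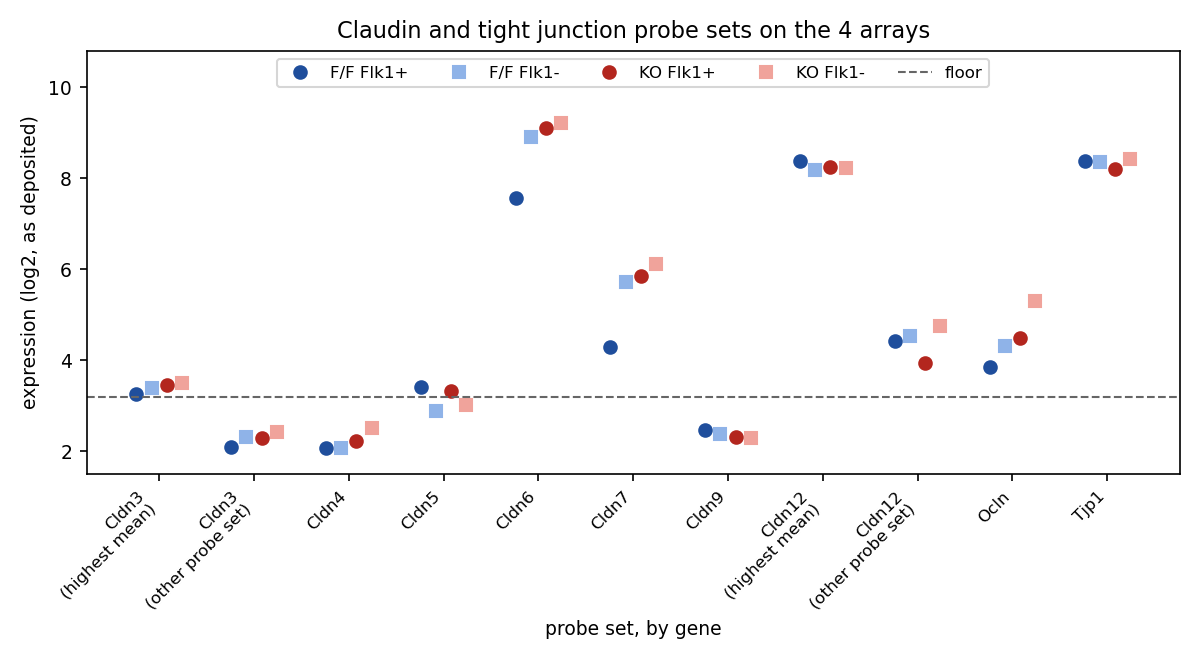
Log2 expression as deposited (vertical axis) for each of the 11 probe sets of the 9 genes, with 1 point per array and the floor of 3.19 as a dashed line. For Cldn6 and Cldn7 the F/F Flk1+ point lies below the other 3, at 7.56 and 4.30, and Ocln is highest on the KO Flk1- array at 5.31.

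Ocln, the occludin gene, differed in another pattern. Its values were 3.86, 4.32, 4.49 and 5.31, lowest in F/F Flk1+ and highest in KO Flk1- cells. The KO minus F/F difference was 0.64 in Flk1+ cells (1.55-fold, rank 287) and 0.99 in Flk1- cells (1.98-fold, rank 48), just under 2-fold. The Flk1+ minus Flk1- difference was -0.47 in F/F cells and -0.82 in KO cells (1.76-fold). The larger genotype difference of Ocln was thus in the fraction where those of Cldn6 and Cldn7 were smaller, and its KO Flk1- value comes from the array whose day labels disagree.

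Tjp1 and Cldn12 varied least among the members with ample signal. Tjp1, the scaffold that occludin and claudins bind, had values of 8.38, 8.35, 8.20 and 8.42, a range of 0.23. Cldn12, a claudin without the PDZ-binding tail that links most claudins to ZO proteins, had values of 8.37, 8.18, 8.24 and 8.22 on its main probe set, a range of 0.20. Its other probe set read 4.42, 4.54, 3.95 and 4.75, so the KO minus F/F difference was -0.14 on the first and -0.47 on the second in Flk1+ cells.

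The other claudins of the set were near or below the floor, where small differences carry little information. Cldn3, an epithelial claudin, had values of 3.27, 3.38, 3.46 and 3.51 on one probe set and of 2.09, 2.33, 2.29 and 2.44 on the other, which was below the floor on all 4 arrays. Cldn4, another epithelial claudin, had values of 2.07, 2.08, 2.24 and 2.51, and Cldn9, a claudin best known from the inner ear, had values of 2.47, 2.39, 2.32 and 2.29, all below the floor. Cldn5, the claudin of vascular endothelium, had values of 3.41, 2.89, 3.33 and 3.02 and was above the floor on the 2 Flk1+ arrays only. Its Flk1+ minus Flk1- difference was 0.52 in F/F and 0.30 in KO cells, beside medians of 1.98 and 2.10 over the listed endothelial genes above the floor.

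Cldn6 and Cldn9 are neighbours on chromosome 17, as are Cldn3 and Cldn4 on chromosome 5. Cldn9 was below the floor on all arrays while Cldn6 was 2.91-fold apart in Flk1+ cells, so the pattern of Cldn6 was not measurable in its neighbour. The E-box was present in the windows of Cldn3, Cldn4 and Cldn6 and in the second window of Cldn7. Between KO and F/F Flk1+ cells, Cldn3 differed by 0.20 and Cldn4 by 0.17. Cldn3 was near the floor on one probe set and below it on the other. Cldn4 had no signal above the floor from which a difference could be read. A relation between the motif and the differences was not tested.

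Counted by the 2-fold rule with signal above the floor on at least 1 of the compared arrays, 2 members were higher and 0 lower in KO than in F/F Flk1+ cells, where 0.873% of 10655 genes were higher and 0.976% lower. In Flk1- cells 0 members passed in either direction, against 0.389% higher and 0.949% lower of 10533 genes. Between Flk1+ and Flk1- cells, 0 members were higher and 2 lower in F/F, against 1.20% and 1.51% of 10622 genes. In KO cells 0 members passed, against 1.62% higher and 2.17% lower of 10688 genes. For the difference between the genotype differences, 2 members were above 1 and 0 below -1, against 0.749% and 0.831% of 10955 genes. In each case with calls the members were Cldn6 and Cldn7.

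Over the members above the floor, the median KO minus F/F difference was 0.20 in Flk1+ cells (7 members, 4 above 0). In Flk1- cells it was 0.21 (6 members, 6 above 0). The medians over all genes were -0.05 and 0.04. In Flk1- cells Cldn12 (0.04) and Tjp1 (0.08) were near that median of all genes, and Cldn12 became -0.02 with the centring described next. The members' median Flk1+ minus Flk1- difference was -0.11 in F/F cells and -0.11 in KO cells, beside -0.01 and -0.08 over all genes. When each array was centred on the median of its genes above the floor, the median of all genes in the KO comparison of fractions moved by 0.15, and the members' median there became 0.04. The split of all calls also moved with centring: higher calls went from 47.2% to 58.8% of the calls for KO against F/F in Flk1+ cells, from 42.7% to 60.3% for the fractions of KO cells, and from 47.4% to 69.6% for the difference between the genotype differences. The calls of Cldn6 and Cldn7 kept their direction under that centring.

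**Figure D3:**
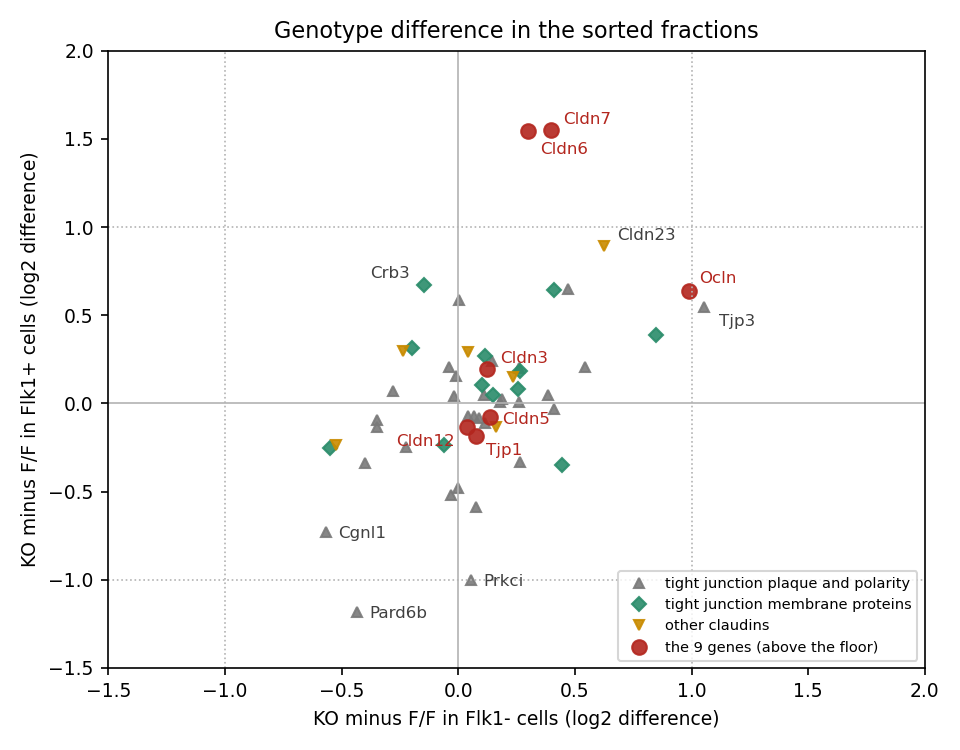
KO minus F/F log2 difference in Flk1- cells (horizontal axis) and in Flk1+ cells (vertical axis) for members, other claudins, other tight junction membrane proteins and plaque or polarity genes above the floor, with dotted lines at 2-fold. Cldn6 and Cldn7 lie at 1.54 and 1.55 on the vertical axis with 0.30 and 0.40 on the horizontal, and Ocln at 0.64 and 0.99.

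Genes with the most similar pattern over the 4 arrays were ranked by the root mean square difference of values centred on each gene's mean, among 10954 genes; this is a description of 4 points per gene. Cldn7 was the nearest gene to Cldn6 and Cldn6 the nearest to Cldn7 (0.066 log2). The second nearest to both was Spint1, an inhibitor of epithelial serine proteases, with values of 4.96, 6.09, 6.32 and 6.50 (0.084 from Cldn6). The third was Trh, the thyrotropin-releasing hormone gene, for Cldn6 (7.69, 9.06, 9.50 and 9.46) and Igfbp2, an insulin-like growth factor binding protein, for Cldn7 (6.76, 7.84, 8.06 and 8.36).

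E-cadherin (Cdh1) was 111th from Cldn6 and 60th from Cldn7, with values of 6.05, 7.76, 7.84 and 8.63, and Epcam 40th and 20th, with values of 6.55, 8.03, 7.84 and 8.64. Ocln was 238th from Cldn6, and Tjp1 6158th. The nearest genes to Ocln were Prss12, a serine protease (4.35, 4.85, 5.06 and 5.91), Ell3, an elongation factor (4.52, 5.13, 5.20 and 5.95), and Mov10, an RNA helicase (3.85, 4.55, 4.62 and 5.38), whose other probe set differed by 0.19 and -0.19 between KO and F/F in Flk1+ and Flk1- cells.

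**Figure D4:**
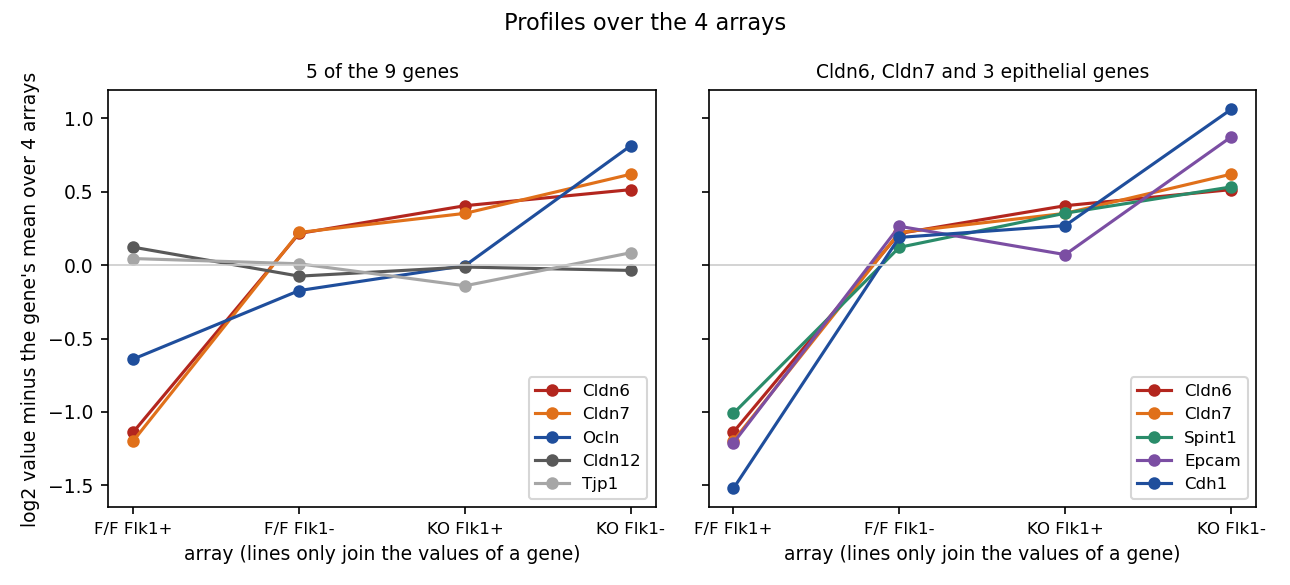
Log2 value minus the gene's mean over the 4 arrays (vertical axis) for 5 of the 9 genes (left) and for Cldn6 and Cldn7 with Spint1, Epcam and Cdh1 (right); lines only join the values of a gene. Cldn6 and Cldn7 overlie each other to within 0.066 (root mean square), and Tjp1 and Cldn12 stay near 0.

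Other claudins showed no 2-fold difference in any comparison. Of 21 listed, 15 were on the array and 9 were below the floor on all 4 arrays. The largest differences were in Cldn23, with values of 2.47, 2.70, 3.36 and 3.33, and in Cldnd1, a claudin-domain protein, with values of 6.99, 6.67, 6.76 and 6.14. Cldn23 was above the floor on both KO arrays only, with KO minus F/F differences of 0.89 and 0.63. Since its F/F values were below the floor, those differences do not give a measured fold.

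Of 17 other tight junction membrane proteins, 15 were on the array, and only Esam, an adhesion molecule of endothelial cells, was 2-fold apart. Its values were 4.11, 2.90, 4.16 and 3.05, higher in Flk1+ cells by 1.21 in F/F and 1.11 in KO cells on the log2 scale. Since the Flk1- values were below the floor, the fold is at least 1.90 in F/F and at least 1.96 in KO cells. Their median KO minus F/F difference was 0.14 in Flk1+ and 0.18 in Flk1- cells. The occludin relatives Marveld2 and Marveld3 were chosen after their values were seen. Marveld2 (tricellulin), which seals the corners where cells meet, had values of 3.99, 4.54, 4.63 and 4.95. Marveld3 had values of 2.19, 2.59, 2.57 and 3.44, above the floor on the KO Flk1- array only.

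Among the 35 plaque and polarity genes, 31 were on the array and the median KO minus F/F difference was -0.03 in Flk1+ and 0.07 in Flk1- cells. Tjp3 (ZO-3), a scaffold of the same family as Tjp1, had values of 3.31, 4.02, 3.86 and 5.07, so it was 1.05 higher in KO than in F/F Flk1- cells (2.08-fold). Tjp3 thus had its highest value on the same array as Ocln. Pard6b, a subunit of the apical polarity complex, had values of 7.36, 7.27, 6.18 and 6.84 and was lower in KO Flk1+ than in F/F Flk1+ cells by -1.18 on one probe set and -1.20 on the other.

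Prkci, the atypical protein kinase C of the same complex, had values of 6.37, 6.48, 5.37 and 6.54, so it was just 2-fold lower in KO than in F/F Flk1+ cells, but its other probe set gave -0.20. In KO cells its Flk1+ minus Flk1- difference was -1.16 on the first probe set and -0.61 on the other, and that of Tjp3 was -1.21.

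In the reference list of 24 epithelial adhesion genes, 22 were on the array. In KO against F/F Flk1+ cells 4 were 2-fold higher, Cdh1 (1.79), Spint1 (1.36), Epcam (1.28) and Rab25 (1.05), and 0 were 2-fold lower. The median was 0.78 over the 20 above the floor, of which 15 were above 0 and 5 below. Those below 0 were Pkp2 (-0.48), Ovol1 (-0.22), Dsp (-0.22), Krt8 (-0.14) and Dsg2 (-0.14). Rab25 was below the floor in F/F Flk1+ cells (3.14), so its fold is at least 1.997 against the floor. In Flk1- cells 0 passed and the median was 0.37. Between the fractions 9 were 2-fold lower in Flk1+ cells in F/F (median -0.92) and 3 in KO (median -0.52). Grhl2 and Esrp1, regulators of epithelial transcription and splicing, had Flk1+ minus Flk1- differences of -1.52 and -1.32 in F/F and of -1.11 and -1.28 in KO cells. The other probe set of Grhl2 gave -0.31 in F/F and 0.15 in KO cells.

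Most of the listed repressors of the epithelial state that act in the transition to mesenchyme had lower values in KO cells. Of 9 listed, Snai1 included, 8 were on the array. Among those above the floor, 5 of 7 were below 0 in Flk1+ and 4 of 6 in Flk1- cells. Their median KO minus F/F difference was -0.59 in Flk1+ and -0.61 in Flk1- cells, beside -0.05 and 0.04 over all genes. Tcf3 differed little, by -0.14 in Flk1+ and 0.11 in Flk1- cells. Zeb1 had values of 6.41, 5.39, 5.55 and 4.06 on its main probe set, with KO minus F/F differences of -0.86 and -1.33. Its other probe sets gave -0.54 and -0.15 in Flk1+ and -0.22 and -0.13 in Flk1- cells. Snai2 (Slug) had values of 6.13, 5.43, 5.43 and 4.12. Zeb1 and Snai2 were highest in F/F Flk1+ cells, the array on which Cldn6 and Cldn7 were lowest. Twist1, with values of 5.83, 5.68, 6.07 and 5.19, was highest in KO Flk1+ cells, and Snai3, near the floor, in KO Flk1- cells. In KO cells the Flk1+ minus Flk1- differences were 1.49 for Zeb1 and 1.31 for Snai2, beside -0.11 for Cldn6 and -0.27 for Cldn7. A relation between repressors and claudins was not tested. Twist2 had values of 3.53, 3.05, 2.13 and 2.05, below the floor on 3 arrays.

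Markers of other cell types moved over the same arrays, and in these bulk samples fewer cells of a type and less RNA per cell cannot be told apart. The summed linear signal of 11 pluripotency genes was 145.1, 972.8, 386.3 and 1653.1, with a median KO minus F/F difference of 1.77 in Flk1+ cells (6 of 7 above the floor 2-fold higher) and 0.74 in Flk1- cells. The sum of 8 primed epiblast genes was 1008.5, 1721.4, 1863.5 and 2529.2, and all 8 had KO minus F/F differences above 0 in Flk1+ cells (median 0.85). Like Cldn6 and Cldn7, the epiblast sum was lowest in F/F Flk1+ cells and slightly higher in KO Flk1+ than in F/F Flk1- cells. That holds for the sum and not for each gene, as Pou3f1, Sall2 and Foxd3 were lower in KO Flk1+ than in F/F Flk1- cells. Fgf5 added most to this rise of the sum, with log2 values of 8.43 in F/F Flk1- and 8.78 in KO Flk1+ cells. The pluripotency sum was lower in KO Flk1+ than in F/F Flk1- cells.

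The sum of 12 mesenchymal mesoderm genes ran the other way, at 2374.9, 1255.8, 1063.3 and 490.6, and 11 of 12 were lower in KO than in F/F Flk1+ cells; this list shares Zeb1, Zeb2 and Twist1 with the repressors. Endothelial genes (14 of 14) summed to 2949.4, 2031.9, 2860.7 and 2142.0, with Robo4 below the floor on all arrays. Most of each sum came from Ramp2, with log2 values of 10.89, 10.88, 10.84 and 10.97. The median Flk1+ minus Flk1- difference of the endothelial genes above the floor was 1.98 in F/F and 2.10 in KO cells. Endoderm genes (15 of 16) summed to 582.7, 804.4, 654.0 and 788.4, with Amn and Cubn below the floor on all arrays. Of the 12 above the floor, 5 were higher and 7 lower in KO than in F/F Flk1+ cells. Cer1, a secreted antagonist of Nodal, BMP and Wnt, had values of 5.32, 7.45, 7.50 and 8.15, a KO minus F/F difference of 2.18 in Flk1+ cells. Sox17, Hnf4a and Foxa2, transcription factors of the endoderm, differed by 0.96, 0.88 and 0.84 there. Cer1, Sox17, Hnf4a and Foxa2 were lowest in F/F Flk1+ and highest in KO Flk1- cells. Gata4, Gata6 and Sox7 of the same list differed by -0.54, -0.29 and -0.18 in Flk1+ cells. The endoderm genes named with a difference were not picked by a rule set beforehand. Ttr, the transthyretin gene, differed by -2.11 in Flk1+ and -2.68 in Flk1- cells. Trophoblast genes (7 of 9) summed to 79.8, 95.4, 89.1 and 137.2, with Elf5 below the floor on all arrays. Tfap2c, with log2 values of 3.40, 5.15, 3.50 and 6.11, was the largest part of that sum in both Flk1- groups. Surface ectoderm genes (8 of 8) summed to 62.0, 67.3, 63.6 and 62.2, with Krt14, Krt15, Tfap2a, Dlx5 and Wnt6 below the floor on all arrays, and neural genes (6 of 6) to 47.5, 51.6, 49.2 and 58.4, with Sox1 and Olig2 below it. The part of these cell types, and of the Gapdh probe signal, in the differences of Cldn6, Cldn7 and Ocln was not tested.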

How the data were processed

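RNA from 4 groups of sorted cells was measured on 1 Affymetrix array each. The values are log2 expression for 45141 probe sets, as the authors deposited them; RMA and limma are named, per the submitters' processing notes, with roles, versions and genome build not given in the sources used here. Control probe sets (104) were left out; 28898 probe sets had 1 gene, 551 several and 15588 none in the platform annotation. Members and lists were chosen with earlier results of these data known. Differences of log2 values were computed between single arrays, called at 2-fold with signal above the floor on at least 1 compared array; folds against values below the floor are lower bounds. Of each pathway list, genes 2-fold apart in any comparison were named (at most 6, by size), otherwise the 2 with the largest difference, with the 3 genes most like each member whose range was at least 1. The number of arrays limits the precision. The alternatives were other size rules, floors, normalizations (limma 3.58.1: quantile; cyclic loess) and probe set choices. Calculations used Python 3.11.15, numpy 2.4.6 and pandas 2.3.3 and were tested on simulated data.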

Additional observations from a re-analysis of the deposited data

Results flagged for a closer look

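Cldn12 and Tjp1 had differences of opposite sign in the groups compared, none of which was tested, since each group had 1 array. For Cldn12 the KO minus F/F difference was -0.14 in Flk1+ and 0.04 in Flk1- cells, a gap of -0.17. The Flk1- value became -0.02 with centred arrays and -0.003 with cyclic loess, so its sign depends on the scaling. The other probe set of Cldn12 gave -0.47 in Flk1+ and 0.21 in Flk1- cells, a gap of -0.68. For Tjp1 it was -0.19 in Flk1+ and 0.08 in Flk1- cells, a gap of -0.26. The same 4 values of Tjp1 gave Flk1+ minus Flk1- differences of 0.04 in F/F and -0.23 in KO cells, a gap of 0.26.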

How the results depend on the processing

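No paired analysis was possible because each group had 1 array. The alternatives were run for the 9 genes, and calls over all genes were counted only under the other normalizations of the 4 arrays and the centring. There were 10 alternatives, and 1 was added after seeing the data. The added one left out the KO Flk1- array and quantile normalized the other 3, which gives no difference between the genotype differences. No called value of Cldn6 or Cldn7 changed sign. Both genes had 1 probe set each and values above every floor used. The size rules, floors and probe set choices therefore could not move their values, and only the other normalizations and the centring could. With a 3-fold rule, 0 members were higher in KO Flk1+ cells, 0 lower in F/F Flk1+ than in F/F Flk1- cells and 0 above the limit for the difference between the genotype differences. With a 1.5-fold rule, Ocln passed as well: 3 members were higher in KO Flk1+ cells, 1 was higher in KO Flk1- cells and 1 was lower in Flk1+ than in Flk1- KO cells. With a floor raised to the median (3.72), fewer members entered and their median difference was 0.64 in place of 0.20 for KO against F/F in Flk1+ cells and -0.47 in place of -0.11 for the fractions of F/F cells. With the 2-fold rule kept, the KO minus F/F difference in Flk1+ cells was 1.54 to 1.60 for Cldn6 and 1.55 to 1.64 for Cldn7, and that of Ocln in Flk1- cells 0.93 to 0.99. The Flk1+ minus Flk1- difference of Cldn6 in KO cells was -0.11 to 0.04 and that of Cldn12 -0.39 to 0.17, so neither has a direction. Nor does the KO minus F/F difference of Cldn12 in Flk1- cells, which was -0.02 to 0.12. Without replicates, the precision of each value is unknown.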
